A study of Mus musculus with 6 samples.

Results

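The genes described here encode enzymes and complex subunits that place, read or remove methyl groups on DNA and histones, together with the Polycomb proteins. They were chosen by name from a list of 43 symbols, and each gene was represented by its brightest probe set over all 6 arrays. Of the 43, 42 had a probe set carrying their symbol alone, out of 18194 genes measured; Suv39h1 was not analysed here. The 42 comprise 8 DNA methylation genes, 7 genes of Polycomb repressive complex PRC2, 11 of PRC1, 3 of the Polycomb deubiquitinase, 7 trithorax-linked and other histone methyltransferase genes and 6 histone demethylases.

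The cells were lineage-negative, cKit-positive, Sca1-positive (LSK) marrow cells, the fraction of mouse bone marrow that contains blood stem cells and multipotent progenitors, from mice aged 6 weeks. All mice, in both groups, had the genotype Hes1 GFP/WT, a notation for 1 GFP allele and 1 wild-type allele of Hes1, a known target of Notch signalling. Cells were sorted into GFP-positive and GFP-negative, with 3 arrays each, and in each group replicate 1 was female and replicates 2 and 3 were male. The labels do not say how the reporter allele was built, or whether mice were pooled or each array came from its own mouse, so the spread between arrays may be technical. Values are log2 intensities per probe set, which can be compared between arrays for a gene but not between genes. Differences are GFP-positive minus GFP-negative.

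DNA methyltransferases add methyl groups to cytosine, with Dnmt1 copying the pattern after replication and Dnmt3a and Dnmt3b setting it anew, while TET enzymes oxidise the mark as a step toward its removal. PRC2 methylates histone H3 and PRC1 ubiquitinates histone H2A, and both hold developmental genes silent; trithorax proteins oppose them. In blood, loss of Tet2, Dnmt3a or Asxl1 alters stem cell self-renewal, and Bmi1 and Ezh2 are required for stem and progenitor cell maintenance.

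Hes1 itself was at 6.89 ± 0.18 (SD, n = 3) in GFP-negative and 7.43 ± 0.38 in GFP-positive arrays, a log2 fold change of 0.54 ± 0.24 (SE; limma adjusted p = 0.78), and its groups overlapped. Of the sort markers, Ly6a, which encodes Sca1, was not analysed here. Kit was at 10.59 ± 0.12 (SD, n = 3) in GFP-negative and 10.17 ± 0.43 in GFP-positive arrays. Genes of other surface markers, not part of the gate stated above, were looked at beside it. The progenitor antigen Cd34 was at 12.34 ± 0.08 and 11.71 ± 0.21, Flt3 at 12.08 ± 0.05 and 11.19 ± 0.75, and Cd48 at 12.03 ± 0.30 and 11.26 ± 0.29. Slamf1, a stem cell marker, was at 6.69 ± 2.11 and 8.10 ± 1.03. Of these 5, Cd34 and Cd48 were lower at an unadjusted limma p under 0.05. Marker lists of other populations differed between arrays. A list of 37 measured proliferation genes had a median log2 fold change of 0.91, with 14 higher and 0 lower at an unadjusted limma p under 0.05, and its summed intensity lay between 50920 and 71015 in GFP-negative and between 78763 and 81864 in GFP-positive arrays. Erythroid markers, 12 measured, summed to between 8828 and 9957 against 13504 to 18249, while the late erythroid genes Hba-a1 and Alas2 lay under the background guide of 5.59 in all arrays, the highest level of Xist, a transcript of the inactive X chromosome, in male arrays. Of the erythroid list 8 were higher at that p, among them Rhag, which exceeded the guide only in GFP-positive replicate 2. Macrophage markers, 12 measured, summed to between 2284 and 3607 against 3843 to 7816, with 7 higher and 1 lower at that p and a median log2 fold change of 1.90. Cd5l was at 6.06 ± 0.70 and 9.17 ± 0.29 and Hmox1 at 7.09 ± 0.52 and 9.61 ± 0.61, while Adgre1, also counted among the 7 higher, lay under the guide in all arrays. The 1 lower was Csf1r, a macrophage receptor, at 10.42 ± 0.75 in GFP-negative and 8.22 ± 0.29 in GFP-positive arrays, without overlap. Cd68 was at 8.47 ± 0.44 and 8.10 ± 0.43. Endothelial and stromal markers, 15 measured, were highest in GFP-positive replicate 1 for 13 genes, with a sum of 18888 there and between 2740 and 4766 elsewhere. At that p 4 of them were higher and 0 lower. These 4 were Tek, Tie1, Cxcl12 and Vcam1, each without overlap between groups. Vcam1 is also on the macrophage list and is counted among the higher genes there too. Neutrophil granule genes, 10 measured, summed to 31936 in GFP-positive replicate 1 and to between 12169 and 16610 elsewhere. At that p 1 of them was higher, Elane at 6.45 ± 1.69 and 10.68 ± 1.06, and 0 were lower. B cell markers, 9 measured, reached 10819 in GFP-positive replicate 3 against 1185 to 4913 elsewhere, with 4 higher and 0 lower at that p and a median log2 fold change of 1.51. Those higher were Pou2af1, Igll1, Cd79a and Ebf1, all above the guide in every GFP-positive array, while Ms4a1 lay under it in all 6. T and NK cell markers, 9 measured, summed to between 3035 and 3678 against 2454 to 4008. At that p 1 of them was higher, Gzma at 4.37 ± 0.44 and 7.54 ± 0.49, and 0 were lower. In such bulk samples, fewer cells of a type and less RNA per cell cannot be told apart. The part of these lists in the results below was not tested, also where values are set side by side.

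No chromatin gene passed the test over all genes. Of the 42, 19 had a positive and 23 a negative log2 fold change, with a median of -0.05 against 0.01 over all genes. The difference was under 0.5 in size for 33 of them (78.6%), against 79.6% of all genes, and the median size was 0.25 against 0.19 over all genes and 0.26 over the 10917 genes above the 40th percentile of mean level. By limma, 0 of 42 passed an adjusted p of 0.05, as did 0% of all genes, and the smallest adjusted p among them was 0.456. At an unadjusted p under 0.05, 5 of 42 passed where 6.71% of all genes did: 1 was higher (Phc1) where 3.33% of all genes were, and 4 were lower (Kdm4a, Asxl1, Kdm6b and Tet2) where 3.38% of all genes were. The arrays of the groups did not overlap in 1 gene that was higher (5.89% of all genes) and in 5 that were lower (5.51% of all genes). Of the 42, 41 lay above the 40th percentile of mean level, where such counts were more frequent than over all genes. Among those 10917 genes, 499 were higher and 552 lower at that p. Groups did not overlap in 698 that were higher and 803 that were lower. The values below are therefore given as measured; 3 against 3 arrays cannot give a two-sided exact permutation p below 0.1. The 95% interval of a fold change had a median half-width of 0.72 among the 42, so differences of that size would be missed for many of them.

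**Figure D1:**
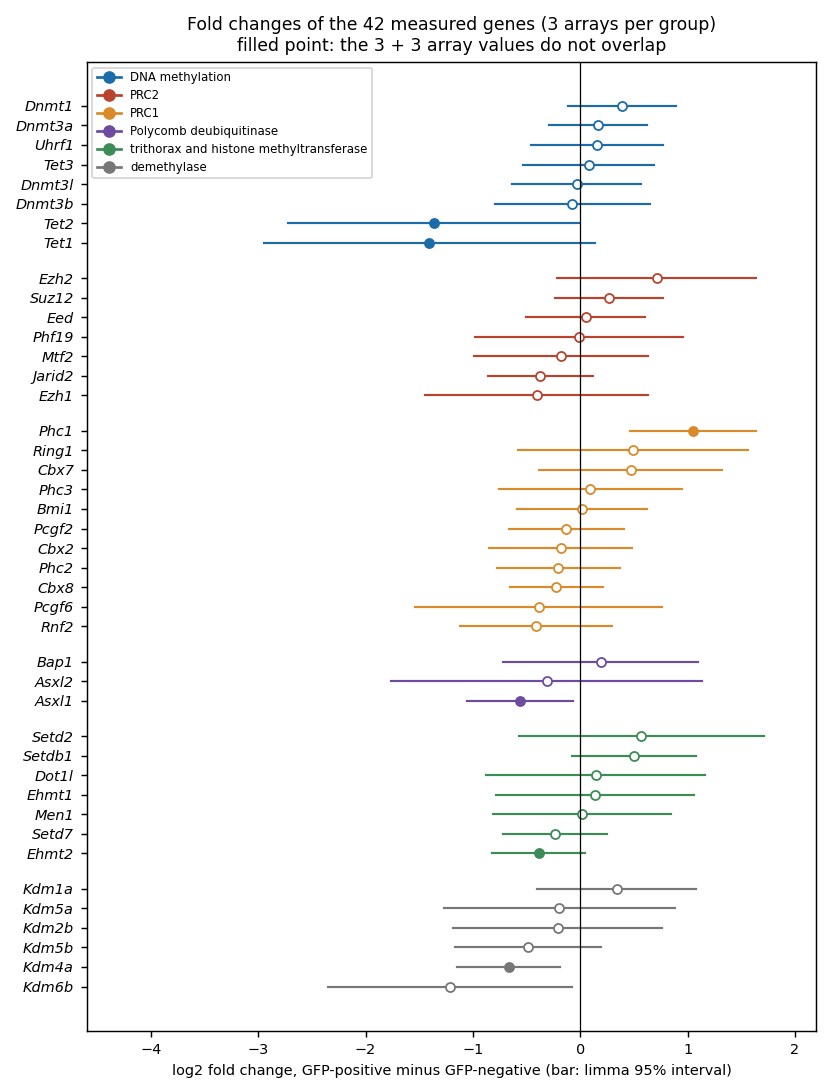
Log2 fold change of each of the 42 genes (GFP-positive minus GFP-negative, n = 3 arrays per group) with its limma 95% interval, grouped and coloured by class; filled points mark genes whose arrays do not overlap between groups. The intervals of Phc1, Tet2, Asxl1, Kdm4a and Kdm6b leave out 0 and all others span it, with Phc1 at 1.05 the farthest to the right and Tet1 and Tet2 at -1.41 and -1.37 the farthest to the left.

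Among the 8 DNA methylation genes, the methyltransferases and their partner Uhrf1 differed little while 2 of the 3 TET enzymes had the most negative values of all 42. Tet1 was at 9.22, 8.78 and 8.62 in the GFP-negative arrays (replicates 1 to 3, as throughout), against 8.57, 6.08 and 7.75 with GFP. Its groups thus did not overlap, but GFP-positive replicate 1 lay just under the lowest GFP-negative array and GFP-positive replicate 2 far below all others. The log2 fold change was -1.41 ± 0.63 (SE, n = 3 per group; limma p = 0.067, adjusted p = 0.79; exact permutation p = 0.1), a 2.65-fold lower mean, and it was -0.71 without GFP-positive replicate 2. The unadjusted p was under 0.05 in 6 of the 18 alternative settings, among them sex as a covariate. All 4 probe sets of Tet1 had negative fold changes, from -1.41 to -0.49.

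Tet2, the TET enzyme most often mutated in human myeloid disease, was at 10.21, 8.79 and 8.67 in the GFP-negative arrays and at 7.07, 7.91 and 8.59 in the GFP-positive arrays. The groups did not overlap, yet GFP-positive replicate 3 lay just under the lowest GFP-negative array, and the female arrays, at 10.21 and 7.07, were the highest and the lowest of all 6. Its log2 fold change was -1.37 ± 0.55 (limma p = 0.049, adjusted p = 0.743; exact permutation p = 0.1), and -0.48 in the male arrays alone, so the size of the difference rests on the female arrays. Without GFP-negative replicate 1 it was -0.88, and the unadjusted p was then over 0.05, as it was in 13 of the 18 alternative settings. A limma interaction of sex with GFP gave 2.65 ± 0.52 for the male minus the female effect (limma adjusted p = 0.467), with 4 of the 42 genes at an unadjusted p under 0.05 where 7.24% of all genes were; with 1 female array per group, sex and array cannot be told apart. The other probe set of Tet2 was at -0.64. Tet3 was at 8.73 ± 0.11 (SD, n = 3) and 8.81 ± 0.44, a log2 fold change of 0.08 with a 95% interval from -0.53 to 0.69.

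The 200 bases before the annotated starts of these genes, from RefSeq (GRCm38.p6), are shown because Tet1 and Tet2 lay farthest from 0. Tet1 lies on the minus strand at chr10:62887325-62887524 and Tet2 on the minus strand at chr3:133544391-133544590. Capitals mark the letters CACNAG on either strand, the N-box that Hes proteins are known to bind.
Tet1: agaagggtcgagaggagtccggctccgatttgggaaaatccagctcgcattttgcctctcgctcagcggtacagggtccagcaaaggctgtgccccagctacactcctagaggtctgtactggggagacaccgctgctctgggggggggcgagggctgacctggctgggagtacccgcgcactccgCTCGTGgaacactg
Tet2: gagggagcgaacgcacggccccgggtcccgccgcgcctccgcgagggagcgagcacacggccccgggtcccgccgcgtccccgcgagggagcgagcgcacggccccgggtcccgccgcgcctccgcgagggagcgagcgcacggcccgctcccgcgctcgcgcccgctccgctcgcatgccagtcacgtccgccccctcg
The Tet1 stretch holds a single such match, near its 3′ end, and the Tet2 stretch holds none.

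Dnmt1, the maintenance methyltransferase, was at 11.48, 11.25 and 10.90 in GFP-negative and at 11.79, 11.54 and 11.46 in GFP-positive arrays. The groups overlapped only in that GFP-negative replicate 1 exceeded the lowest GFP-positive array. The log2 fold change was 0.39 ± 0.21 (limma p = 0.107, adjusted p = 0.859; exact permutation p = 0.2), and its 3 probe sets ranged from 0.28 to 0.47. Uhrf1, which brings Dnmt1 to newly copied DNA, was at 11.87, 10.98 and 11.35 against 11.52, 11.65 and 11.48, so that its highest and lowest arrays were both GFP-negative. Both genes are known to be most active in dividing cells. The proliferation list, as a median centred over the arrays, was at 0.08, -0.64 and -0.64 in GFP-negative and 0.69, 0.33 and 0.36 in GFP-positive arrays. Its genes differed, with log2 fold changes from -0.07 for Mcm3 to 2.63 for the mitotic kinase Aurka. Of its replication genes, Mcm2 to Mcm7 and Pcna lay between -0.07 and 0.16, while Rrm2 was at 1.04. The part of the list in the values of Dnmt1 was not tested.

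**Figure D2:**
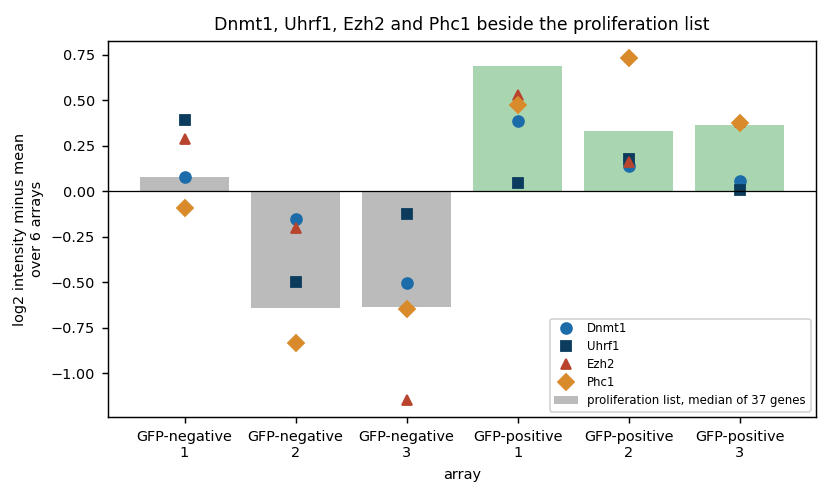
Centred log2 intensity (each gene minus its mean over 6 arrays) of Dnmt1, Uhrf1, Ezh2 and Phc1 as points, over bars giving the median of 37 proliferation genes, for each array; grey bars are GFP-negative and green bars GFP-positive. The bars stand between 0.33 and 0.69 in GFP-positive arrays, and GFP-negative replicate 1, at 0.08, stands above the other GFP-negative arrays, as do its Dnmt1, Uhrf1, Ezh2 and Phc1 points. Among GFP-positive arrays the bar and the Dnmt1 and Ezh2 points are highest in replicate 1, the Uhrf1 and Phc1 points in replicate 2.

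The de novo enzyme Dnmt3a was at 10.41 ± 0.15 (SD, n = 3) and 10.57 ± 0.24, a log2 fold change of 0.16 with a 95% interval from -0.29 to 0.62. Its brightest probe set was the only one of 5 above 0, the lowest being -0.46. Dnmt3b was at -0.07 (interval -0.80 to 0.65). Dnmt3l, a catalytically inactive partner of the de novo enzymes in germ cells, was at 5.40 ± 0.40 and 5.37 ± 0.20, close to the background guide of 5.59. The other 41 genes exceeded that guide in every array.

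PRC2 genes showed a mixed picture, with 3 of 7 positive, a median of -0.01 and 0 past an unadjusted p of 0.05. Ezh2, the main catalytic subunit of PRC2 in dividing cells, was at 10.46, 9.97 and 9.03 in GFP-negative arrays and at 10.71, 10.34 and 10.56 in GFP-positive arrays. The GFP-positive arrays lay close together and the GFP-negative ones were spread, with replicate 1 inside the GFP-positive range and replicate 3 well below every other array. Its log2 fold change of 0.71 ± 0.38 (limma p = 0.108, adjusted p = 0.861; exact permutation p = 0.2) was 0.32 without GFP-negative replicate 3. Ezh1, the alternative catalytic subunit of resting cells, was at 7.86, 9.37 and 8.91 against 7.89, 8.44 and 8.59, a log2 fold change of -0.41 ± 0.42 (limma p = 0.374; exact permutation p = 0.5). Its 4 probe sets all had negative values, between -1.21 and -0.06. Values of Ezh1 in the replicate 1 arrays, 7.86 and 7.89, were the lowest of their groups, and those of Ezh2, at 10.46 and 10.71, the highest of theirs.

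The stretches before the starts of both catalytic subunits, both on the minus strand, are given because their fold changes had opposite signs. They cover chr11:101226464-101226663 for Ezh1 and chr6:47595031-47595230 for Ezh2, and capitals mark the N-box and, on either strand, the CCAAT box (letters CCAAT), a common promoter element of genes of dividing cells.
Ezh1: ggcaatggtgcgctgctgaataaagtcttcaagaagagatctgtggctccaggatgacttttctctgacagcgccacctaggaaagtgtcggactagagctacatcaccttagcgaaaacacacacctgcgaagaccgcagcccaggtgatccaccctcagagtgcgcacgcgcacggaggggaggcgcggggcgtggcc
Ezh2: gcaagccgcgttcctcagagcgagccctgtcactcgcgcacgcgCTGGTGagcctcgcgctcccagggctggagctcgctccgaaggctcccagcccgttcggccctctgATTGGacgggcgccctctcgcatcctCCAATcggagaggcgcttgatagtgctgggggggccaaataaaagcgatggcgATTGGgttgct
The Ezh2 stretch holds 3 CCAAT boxes and 1 N-box, whereas none of the letters searched occurs in that of Ezh1.

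Jarid2, which guides PRC2 to chromatin, was at 8.74, 9.13 and 9.14 in GFP-negative arrays and at 8.70, 8.37 and 8.82 in GFP-positive arrays. The GFP-negative replicate 1 array lay inside the GFP-positive range, and the log2 fold change was -0.37 ± 0.20 (limma p = 0.114, adjusted p = 0.865; exact permutation p = 0.2). Of the core subunits, Suz12 was at 0.27 (95% interval -0.23 to 0.77) and Eed, which binds the methylated histone, at 0.05 (-0.50 to 0.60). The accessory subunits Mtf2 and Phf19 were at -0.18 and -0.01, and the 6 probe sets of Mtf2 ran from -1.62 to 0.38.

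PRC1 held the gene with the smallest p of the 42. Phc1, a polyhomeotic subunit that joins PRC1 complexes to each other, was at 9.40, 8.65 and 8.84 in GFP-negative and at 9.96, 10.22 and 9.86 in GFP-positive arrays. All GFP-positive arrays lay above all GFP-negative ones, and the difference was 0.56 between the female arrays and 1.29 between the means of the male arrays. The mean was 2.07-fold higher, a log2 fold change of 1.05 ± 0.24 (limma p = 0.0047, adjusted p = 0.456; two-sided exact permutation p = 0.1, the smallest that 3 against 3 arrays allow). With each of the 6 arrays left out in turn the unadjusted p stayed under 0.05, with log2 fold changes from 0.90 to 1.27. Phc1 had a single probe set, so the choice of probe set could not be varied. Among the GFP-negative arrays both Phc1 and the proliferation list were highest in replicate 1. Among the GFP-positive arrays Phc1 was highest in replicate 2, where the list was lowest, and the list was highest in replicate 1. The part of the list in the value of Phc1 was not tested.

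The 200 bases before the Phc1 start, on the minus strand at chr6:122340228-122340427, are given because Phc1 had the smallest p.
Phc1: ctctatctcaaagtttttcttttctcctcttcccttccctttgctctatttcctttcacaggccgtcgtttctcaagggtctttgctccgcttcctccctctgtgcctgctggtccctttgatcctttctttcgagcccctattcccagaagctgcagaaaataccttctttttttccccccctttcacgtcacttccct
None of the motifs searched occurs in it, so it carries no capitals.

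Of the paralogues of Phc1, Phc2 was at -0.20 (95% interval -0.77 to 0.37) and Phc3 at 0.09 (-0.76 to 0.95). Bmi1, the ring-finger subunit needed for stem cell self-renewal, was at 9.96 ± 0.37 (SD, n = 3) and 9.97 ± 0.26, a log2 fold change of 0.02 with an interval from -0.59 to 0.62; its other probe set was at -0.92. Of the alternative ring-finger subunits, Pcgf2 was at -0.13 and Pcgf6 at -0.39. Rnf2, the ubiquitin ligase of PRC1, was at 9.92, 10.66 and 10.22 against 9.64, 10.32 and 9.60 and overlapped between groups. It had a log2 fold change of -0.41 ± 0.29 (limma p = 0.207; exact permutation p = 0.3), with probe sets from -0.60 to 0.26. Its paralogue Ring1 was at 0.49 ± 0.44. The chromodomain subunits that read the PRC2 mark were at -0.18 for Cbx2, 0.47 for Cbx7 and -0.22 for Cbx8, and the value of Cbx7 came from GFP-positive replicate 3 at 9.24, the other 5 arrays lying between 7.85 and 8.16. Over all 11 PRC1 genes the median was -0.13.

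**Figure D3:**
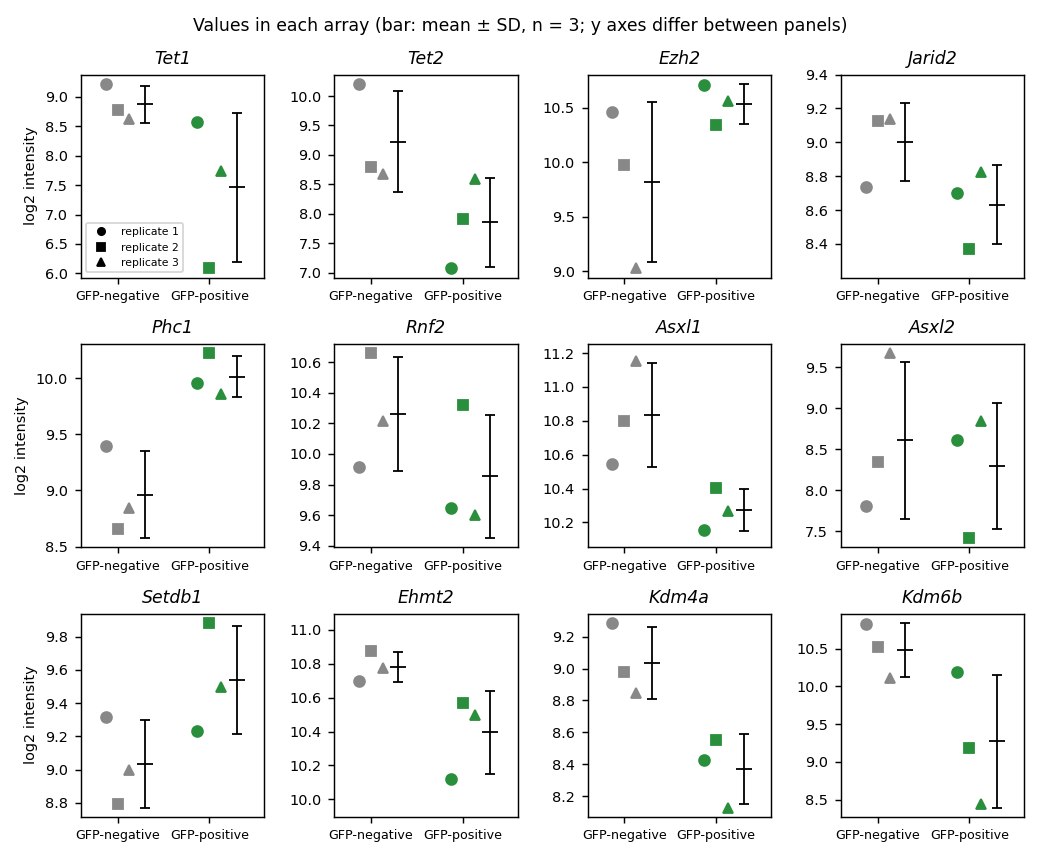
Log2 intensity in each array for the 12 genes that have the 2 smallest p of each class (grey, GFP-negative; green, GFP-positive; the marker shape gives the replicate number), with the mean ± SD of each group (n = 3). The arrays of Phc1, Tet1, Tet2, Asxl1, Ehmt2 and Kdm4a do not overlap between groups, while the Tet2 arrays of replicate 1, at 10.21 and 7.07, lie at the ends of their panel.

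The Polycomb deubiquitinase removes ubiquitin from histone H2A and consists of the enzyme Bap1 with an Asxl partner. Asxl1 was at 10.55, 10.80 and 11.16 in GFP-negative arrays and at 10.15, 10.40 and 10.27 in GFP-positive arrays. These groups did not overlap, with a gap from 10.40 to 10.55. The log2 fold change was -0.56 ± 0.20 (limma p = 0.033, adjusted p = 0.681; exact permutation p = 0.1), a 1.47-fold lower mean. Averaged over its 3 probe sets, 1 of which stood at 0.04, it was -0.31 and no longer at an unadjusted p under 0.05, and without GFP-negative replicate 3 it was -0.40. The unadjusted p was over 0.05 in 7 of the 18 alternative settings, among them the omission of GFP-negative replicate 2 or 3 or of GFP-positive replicate 1 or 3. Asxl2 was at 7.81, 8.34 and 9.67 against 8.61, 7.41 and 8.84, so that the arrays of each group spread over more than the difference of -0.31 ± 0.59 (limma p = 0.616; exact permutation p = 0.7). Bap1 was at 0.19, with a 95% interval from -0.72 to 1.10.

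The 7 trithorax-linked and other histone methyltransferase genes had 5 positive values and a median of 0.14, which ranged from -0.15 to 0.39 with 1 array left out, the lowest without GFP-negative replicate 2. Setdb1, which methylates histone H3 at silenced repeats, was at 9.32, 8.79 and 9.0 in GFP-negative and at 9.24, 9.88 and 9.50 in GFP-positive arrays. The difference was 0.79 between the means of the male arrays and -0.08 between the female arrays. Its log2 fold change of 0.50 ± 0.24 (limma p = 0.078, adjusted p = 0.809; exact permutation p = 0.2) came from its brightest probe set, while the other 2 had the opposite sign at -0.83 and -0.67. Ehmt2, which forms a heterodimer with Ehmt1 to place a repressive mark on histone H3, was at 10.70, 10.88 and 10.77 against 10.12, 10.57 and 10.50. Its GFP-positive arrays all lay below the GFP-negative ones, with a log2 fold change of -0.39 ± 0.18 (limma p = 0.071, adjusted p = 0.798; exact permutation p = 0.1), which was -0.25 without GFP-positive replicate 1. Ehmt1 itself was at 0.14 ± 0.38. Menin (Men1), the adaptor that links trithorax methyltransferases to their targets, was at 0.01 (95% interval -0.81 to 0.84). Dot1l, which methylates the globular part of histone H3 in transcribed genes, was at 0.14, Setd2, which marks the bodies of transcribed genes, at 0.57 ± 0.47, and Setd7 at -0.24.

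Of the 6 histone demethylases listed, 5 were negative and the median was -0.35, against 48.7% of all genes negative and a median of 0.01. Among genes above the 40th percentile of mean level, 52.6% were negative. The 24 other demethylase genes measured in the wider list below did not share this balance, with 13 negative and a median of -0.03. Kdm4a, which removes methyl groups from repressive and elongation marks on histone H3, was at 9.29, 8.98 and 8.84 in GFP-negative arrays and at 8.42, 8.56 and 8.13 in GFP-positive arrays. The groups did not overlap. The mean was 1.59-fold lower, a log2 fold change of -0.67 ± 0.20 (limma p = 0.0147, adjusted p = 0.574; exact permutation p = 0.1). Its other probe set lay between 4.16 and 4.86, under the background guide, with a fold change of -0.14. The unadjusted p of Kdm4a was over 0.05 in 3 of the 18 alternative settings: that probe set, an intensity trend in limma, and males alone.

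Kdm6b, which removes the PRC2 mark and is induced by inflammatory signals, was at 10.82, 10.52 and 10.11 against 10.19, 9.18 and 8.44. The arrays overlapped only in that GFP-positive replicate 1 exceeded GFP-negative replicate 3. Its log2 fold change was -1.21 ± 0.47 (limma p = 0.04, adjusted p = 0.722; exact permutation p = 0.2), and -0.71 as the mean of its 3 probe sets. Without GFP-positive replicate 3 it was -0.80, and the unadjusted p was over 0.05 in 6 of the 18 alternative settings, among them these and the omission of GFP-negative replicate 1 or 2 or of GFP-positive replicate 2. Kdm5b, which removes the trithorax mark, was at -0.49 ± 0.28, and its difference was 0.23 between the female arrays and -0.85 between the means of the male arrays. Its paralogue Kdm5a was at -0.20, the PRC1-linked Kdm2b at -0.21, and Kdm1a, the partner of corepressors in blood cells, at 0.34 ± 0.30. The 2 probe sets of Kdm1a differed in sign.

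**Figure D4:**
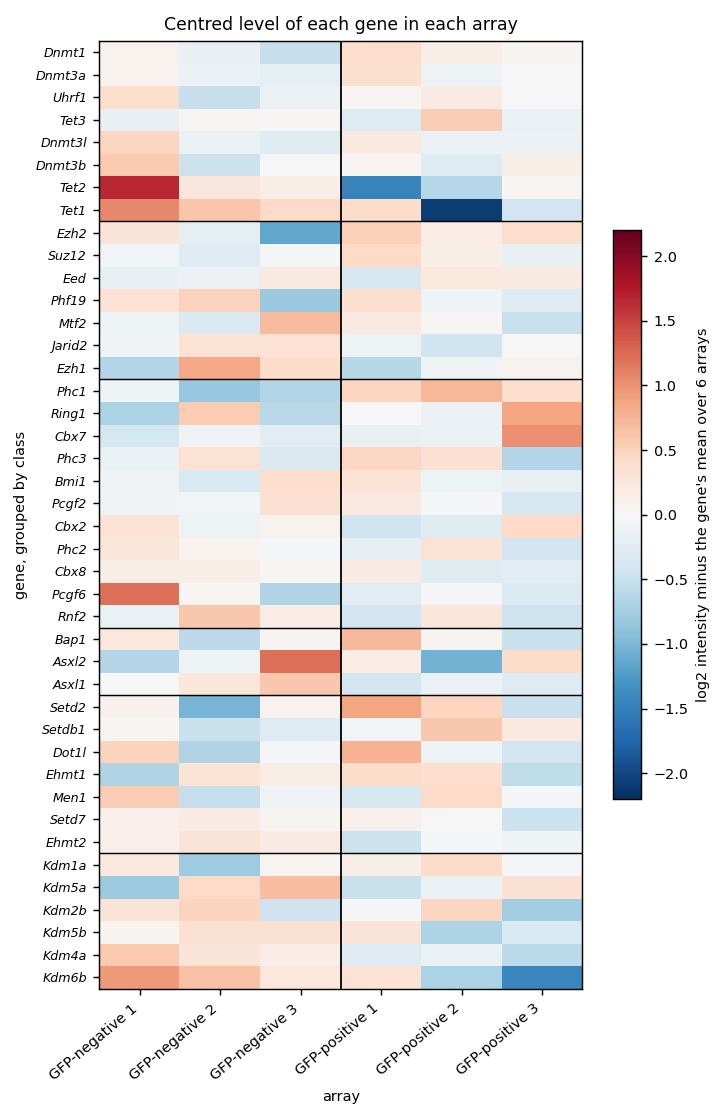
Log2 intensity of each gene minus its mean over the 6 arrays (blue, below; red, above; scale from -2.2 to 2.2), with genes in rows by class and arrays in columns. The farthest single values are Tet1 in GFP-positive replicate 2, at -2.09, and Tet2 in GFP-negative and GFP-positive replicate 1, at 1.67 and -1.47.

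The SD between arrays of a group had a median of 0.39 among the 42 genes and 0.42 among the 10917 brighter genes above. It ran from 0.18 for Cbx8 to 0.92 for Tet1.

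The choice of probe set bears on the balance of signs. The 42 genes had 112 probe sets, of which 70 (62.5%) had negative fold changes, against 50.1% of all 34958 named probe sets. Among the 70 that were not the brightest of their gene, 47 (67.1%) were negative, against 51.6% of such probe sets over all genes. Probe sets of a gene share its transcript and are not independent, so these shares are a description. Of the 35 genes with several probe sets, 13 had all of them below 0 and 5 had all above 0. Those below 0 included Tet1, Tet2, Ezh1, Jarid2, Ehmt2, Kdm4a and Kdm6b, and those above 0 were Dnmt1, Uhrf1, Bap1, Men1 and Phc3.

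**Figure D5:**
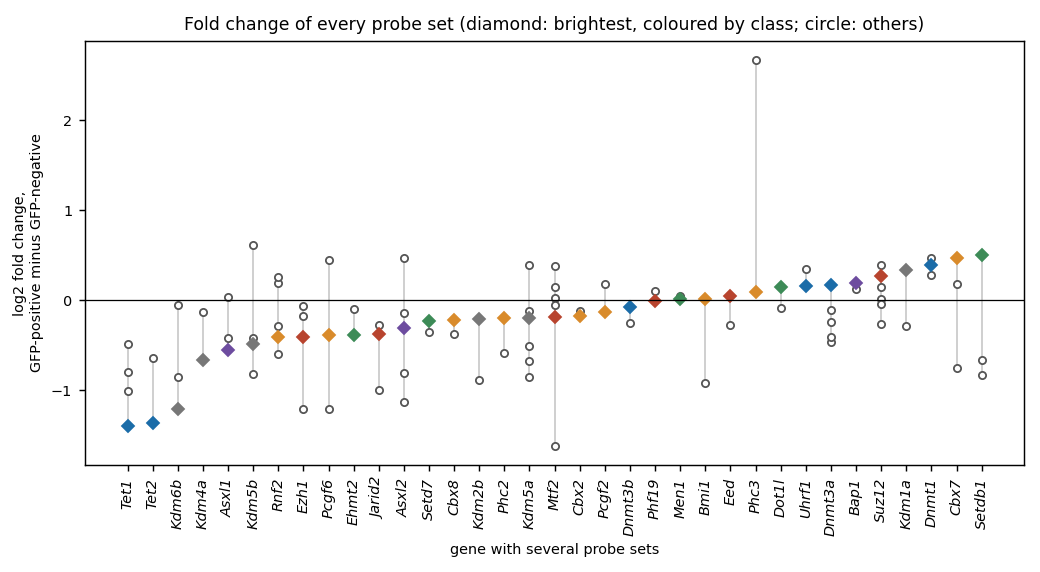
Log2 fold change (GFP-positive minus GFP-negative) of each probe set of the 35 genes that have several, ordered by the brightest probe set; diamonds are the brightest, coloured by class, and circles the others. The probe sets of Tet1 and Tet2 all lie below 0, those of Dnmt1 all above, and Setdb1 and Bmi1 have probe sets far below their brightest.

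A wider list of 136 other genes of the same systems had 128 measured, with 61 positive and 67 negative fold changes and a median of -0.02. At an unadjusted limma p under 0.05, 3 of the 128 were higher and 13 lower, against 3.33% and 3.38% of all genes, and 0 passed the adjusted test (smallest adjusted p 0.177). When each array was left out in turn, the lower count ranged from 6 to 11, and it was 5 with the second brightest probe set of each gene. The smallest p belonged to Sfmbt2, a Polycomb-linked protein encoded by an imprinted gene, at 6.74, 6.4 and 6.46 in GFP-negative and at 4.69, 5.08 and 4.39 in GFP-positive arrays. The GFP-positive values all lay under the background guide, so no fold is given. Prmt6, an arginine methyltransferase of histone H3, was at 8.47, 8.47 and 8.52 against 7.39, 7.81 and 7.11, a log2 fold change of -1.05 ± 0.21 (adjusted p = 0.411).

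By class, 6 of 49 other trithorax and histone methyltransferase genes were lower at an unadjusted limma p under 0.05 and 3 higher. DNA methylation, PRC2 and demethylase genes had 1 lower each, deubiquitinase genes 0, and none of these classes had any higher. Of the other genes listed under PRC1, the class with the largest share lower, 4 of 19 were lower at that p, where 3.38% of all genes were. This class also takes in Polycomb-linked proteins that are not PRC1 subunits, such as Sfmbt2. None of the 19 was higher, where 3.33% of all genes were. The 4 lower genes were Sfmbt2, whose GFP-positive level is only a bound, L3mbtl3, Pcgf1 and Bcor. L3mbtl3, a reader of methylated histones, was at -1.21 ± 0.37. Only Pcgf1, at -1.61 ± 0.51, and Bcor, at -0.40 ± 0.15, are subunits of a PRC1 complex, a variant form. Pcgf1 was at 8.84, 8.04 and 7.38 against 5.70, 6.55 and 7.19, and Bcor at 11.32, 11.06 and 11.26 against 10.78, 10.88 and 10.76, without overlap in either gene. Epop, an accessory PRC2 protein, was at 7.59, 8.50 and 6.26 against 5.89, 5.03 and 5.91, 1 of these under the guide. The demethylase Kdm7a was at -2.19 ± 0.60, its GFP-positive arrays being at 8.44, 6.08 and 7.59 and its GFP-negative arrays between 9.35 and 9.96. The methyltransferase Nsd1 was at -0.93 ± 0.30. On the positive side stood Mllt3, a cofactor of Dot1l that maintains stem cells, at 1.30 ± 0.43 and without overlap, and Prdm16, a stem cell regulator of the PR-domain family, at 0.75 ± 0.27. Adjusted p-values of these 8 genes by limma lay between 0.528 and 0.68.

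Promoter sequences (RefSeq, GRCm38.p6) were found for 40 of the 43 listed genes, and were searched over the 250 bases before each start on both strands; a gene with several starts counted if any held the motif. The N-box was present in 12 of the 40 genes (30.0%) against 40.1% of all 27025 genes with a promoter. The core of the site of RBPJ, the DNA-binding factor of Notch signalling (letters GTGGGAA), was present in 0 of 40 against 6.18%. The E-box CACGTG, which is its own reverse complement, was present in 9 of 40 (22.5%) against 6.86%, and the CCAAT box in 16 of 40 genes (40%) against 37.5%. An E2F core (letters TTCCCGC) was present in 4 of 40 genes (10%) against 4.38%, in Asxl1, Phf19, Suz12 and Uhrf1, and its variant TTGGCGC in 0 of 40 against 2.31%. No motif contains the letters of another. The promoters of the listed genes were richer in G and C, with a median of 64.4% against 52.4% over single promoters, and the shares are given as a description only.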

How the data were processed

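Per the labels' protocols, total RNA was extracted from the sorted cells with a commercial kit, and 5 ng was amplified and biotin-labelled. The table the authors deposited holds linear intensity values of 45101 probe sets. Per the submitters' processing notes they used RMA, of a version not stated there. Its quantile step removes shifts common to most genes. Array medians lay between 74.0 and 78.5, and log2 was taken with no pseudocount.

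The platform annotation gave 1 symbol to 34958 probe sets, several to 932, and did not list 9211; those without a single symbol were left out. The brightest probe set by mean log2 stood for each of 18194 genes. Groups were compared with limma 3.58.1 in R 4.3.3 (lmFit and eBayes, no covariates), with Benjamini-Hochberg adjustment over all genes and a threshold of 0.05, and single values also by a two-sided exact permutation test. Every member may be named; values in each array are given for genes at an unadjusted p under 0.05, genes whose groups do not overlap and the 2 smallest p of each class, and Dnmt1, Uhrf1, Ezh1 and Cbx7 were added after their values were seen. Of the other pathway genes the 10 of smallest p were named. Members, lists and tests were chosen with earlier results of these data known. On simulated data of 18194 genes, limma recovered 10% of genes with a true log2 difference of 1, then 70% for 2 and 94.4% for 4. The 6 arrays limit the precision. Alternatives are given in the closing section. Figures were drawn with matplotlib 3.10.9.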

Additional observations from a re-analysis of the deposited data

How the results depend on the processing

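Across the 18 alternative settings, the count of members past an adjusted p of 0.05 stayed at 0, also at an adjusted p of 0.1, and no gene with an unadjusted p under 0.05 changed direction. Of 755 values of single genes under these settings, 699 kept their side of an unadjusted p of 0.05 or moved by less than the spread between arrays, 29 lost and 17 gained that p, and 10, all from another choice of probe set, changed sign by more than that spread without passing that p in the reported values. Over all genes 1 passed the adjusted threshold with the dimmest 40% of genes left out, and between 0 and 5 with 1 array left out, the 5 without GFP-positive replicate 3. The count of members higher at an unadjusted p under 0.05 was 2 with probe sets averaged, the second brightest probe set, renewed quantile normalisation or males alone. With probe sets averaged or the second brightest, the gene beside Phc1 was Phc3, through its dim probe set described below. The count lower was 2 with the mean of probe sets, 1 with the second brightest and 0 at a p under 0.01. With 1 array left out these counts ranged from 1 to 2 (2 without GFP-negative or GFP-positive replicate 1) and from 1 to 4 (1 without GFP-negative replicate 2, 2 without GFP-positive replicate 2 or 3). The median over all members was -0.16 with the mean of probe sets and between -0.14 and 0.02 with 1 array left out. Class medians moved to -0.55 for demethylases with the second brightest probe set and to -0.64 for the Polycomb deubiquitinase in males alone. With 1 array left out they ranged from -0.09 to 0.20 for DNA methylation, -0.19 to 0.12 for PRC2, -0.19 to 0.02 for PRC1 (0.0215 without GFP-positive replicate 3), -0.70 (without GFP-negative replicate 1) to 0.22 (without GFP-negative replicate 3) for the deubiquitinase, -0.15 to 0.39 for trithorax and other methyltransferases and -0.56 to -0.24 for demethylases. For the other pathway genes the higher count was 1 with the mean of probe sets, 5 with renewed quantile normalisation, 6 in males alone and between 0 and 5 with 1 array left out (0 without GFP-positive replicate 2, 1 without GFP-negative replicate 3, 5 without GFP-negative replicate 2 or GFP-positive replicate 1). Their lower count was 5 with the second brightest probe set, 7 without dim genes and between 6 and 11 with 1 array left out (6 without GFP-negative replicate 1, 8 without GFP-negative replicate 2 or 3 or GFP-positive replicate 2). Apart from the count that Phc3 joined, the cause of these shifts was not tested.

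Arrays with the same replicate number deviated from their group means together with correlations of 0.12, 0.05 and 0.09, so the numbers were not taken as a pairing, although each array correlated best with its own number. With the replicate block the members past an unadjusted p of 0.05 again numbered 5, of which 4 were the same genes, with Tet1 in place of Tet2; over all genes 1390 passed that p against 1221 without the block. Genes near the background guides, such as Dnmt3l, allow no statement.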

Other observations

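The Y-linked relatives of the demethylases followed the sex labels rather than the GFP groups. Kdm5d, the Y-linked relative of Kdm5a and Kdm5b, was at 3.42 and 3.50 in the female GFP-negative and GFP-positive arrays, while male arrays lay between 9.66 and 10.50. Uty was at 4.16 and 3.79 in females and between 6.53 and 7.61 in males. The X-linked Kdm5c and Kdm6a, which escape X inactivation, had log2 fold changes of 0.16 ± 0.43 and 0.16 ± 0.41 (SE, n = 3 per group) between the GFP groups.

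A second, dim probe set of Phc3 was at 3.13, 3.04 and 3.09 in GFP-negative arrays and at 5.29, 6.63 and 5.36 in GFP-positive arrays, while the log2 fold change of the bright probe set of Phc3 was 0.09. Of the dim values only GFP-positive replicate 2 exceeds the background guide of 5.59, so no fold is given. This probe set is named because of its values.

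Over the 6 arrays the genes whose levels were most like those of Dnmt1 were Cacul1, Pik3r2, Kif23, Brca1 and Ndel1, with Pearson correlations from 0.987 to 0.998. For Ezh2 they were Acvr1, Naaa, Pck2, Ppm1m and Ndel1, from 0.978 to 0.993. They are the highest correlations over all genes, each over only 6 points, and are given as a description.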
